A study of Mus musculus with 10 samples.

Results

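The genes described here encode the chaperones of the cytosol and the organelles, the proteins that fold other proteins and keep them folded. Members were taken by symbol from the deposited mouse tables: the subunits of the cytosolic chaperonin (Cct genes and Tcp1), the Hsp70 family (Hspa), Hsp110 (Hsph), Hsp90, the mitochondrial Hsp60 and Hsp10 (Hspd1 and Hspe1), the small heat shock proteins (Hspb), the J-domain proteins (Dnaja, Dnajb and Dnajc) and the protein disulfide isomerases (Pdia). Hspa5 and Pdia4 were left out by the rule. The rule used symbols only and gave 64 of the 10694 genes in the tables. Of these, 62 were in both tables and 49 had enough reads to be tested.

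Chaperones work in relays. Hsp70 proteins bind unfolded stretches of new or damaged proteins in cycles of ATP hydrolysis that J-domain proteins start, and pass clients to Hsp90 or to barrel-shaped chaperonins, which enclose a protein while it folds. The cytosolic chaperonin CCT folds actin and tubulin, Hsp60 with its lid Hsp10 serves the mitochondrial matrix, protein disulfide isomerases form and correct disulfide bonds in the endoplasmic reticulum, and small heat shock proteins hold unfolded proteins without ATP. In skin, keratinocytes build a dense keratin network, and small heat shock proteins are known from its upper layers.

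RNA was taken from ear skin of c57/Bl6 mice (age 6 to 8 weeks) in 3 groups. Imiquimod, a Toll-like receptor agonist that inflames mouse skin, was put on the skin of both treated groups for 6 days. In the DMSO group (n = 4) it was given with the solvent DMSO, and in the benzamil group (n = 4) with benzamil, a derivative of amiloride and a blocker of the epithelial sodium channel. The untreated group (n = 2) received neither imiquimod nor solvent. Back skin is named for the untreated control in the design text of the series but ear skin in its sample labels, so treatment and body site cannot be told apart in any comparison with the untreated libraries. No label says that the libraries of a group came from separate animals, so the p-values rest on a spread that may be technical.

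Depth was low and uneven. The joined tables held 259262 to 935714 reads in DMSO libraries, 138440 to 375455 in benzamil libraries and 71144 to 74614 in untreated libraries, so that 1 read was worth from 1.07 to 14.1 CPM (reads for each 1000000 of the library) before scaling. All levels below are CPM of the scaled library. Ribosomal RNA was counted from mt-Rnr1, mt-Rnr2 and Rn18s-rs5. It took 22.1% to 28.8% of reads with DMSO, 31.0% to 45.7% with benzamil and 34.2% to 38.6% without treatment. Mitochondrially encoded messenger RNAs took 1.56% to 2.22% with DMSO, 0.745% to 1.67% with benzamil and 1.08% to 1.87% without treatment. Summed levels of cell type markers moved with the groups as well. Of 10 neutrophil markers 4 were in both tables: Cxcr2, Retnlg, S100a8 and S100a9. Inflamed keratinocytes also make S100a8 and S100a9. The 4 summed to 10450 to 17370 CPM in DMSO libraries, 202 to 4028 in benzamil libraries and 42.3 to 204 in untreated libraries. Retnlg was at 0 in the benzamil group, and Cxcr2 and Retnlg were at 0 in the untreated group. Keratinocyte markers (10 of 10) summed to 36270 to 49460, 53240 to 69640 and 23800 to 25590 CPM in the same order, and fibroblast and matrix markers (11 of 12) to 550 to 1059, 727 to 2289 and 8054 to 18450. Sebaceous gland markers (7 of 8) summed to 1775 to 3282, 4657 to 8124 and 5882 to 8598 CPM, without overlap between DMSO and benzamil. Skeletal muscle markers (18 of 20) summed to 592 to 2540, 1265 to 3665 and 5741 to 6311 CPM. Sums of macrophage and dendritic cell (8 of 10), T cell (1 of 6), adipocyte (2 of 5), cartilage (3 of 5) and erythrocyte (4 of 4) markers overlapped between DMSO and benzamil libraries. The 1 melanocyte marker in both tables, of 4, stood at 0 to 6.97, 11.5 to 22.6 and 56.4 to 63.9 CPM. The part of these shifts, and of depth, ribosomal RNA and mitochondrially encoded messenger RNA, in the results below was not tested. In whole tissue fewer cells of a type and less RNA per cell cannot be told apart.

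Promoters are shown first for members with a match to the heat shock element, the sequence that heat shock factors bind, or to the endoplasmic reticulum stress element. They were chosen after the values were seen: members called in both benzamil over DMSO and DMSO over untreated (with Hspd1 shown through the window it shares with Hspe1), and both members higher with benzamil. Cct6a and Dnaja1, called in benzamil over DMSO alone, also held a match to the heat shock element and are not shown. The windows run from 250 bases before to 50 bases after the start of transcription and come from RefSeq on GRCm38.p6, where 51 of 62 members had at least 1 window (67 of the 32851 windows in all). No window was listed for Hspa8, Hspa9, Hspa13, Hsp90aa1, Hsp90ab1, Cct4, Dnajc2, Dnajc5, Dnajc11, Dnajc18 or Dnajc30. The regions are chr1:55087898-55088197 on the plus strand for Hspe1, chr5:29735648-29735947 on the plus strand for Dnajb6, chr17:34959189-34959488 on the minus strand for Hspa1b, chr5:135887669-135887968 on the plus strand for Hspb1, chr5:116422815-116423114 on the minus strand for Hspb8 and chr12:17266339-17266638 on the plus strand for Pdia6. Each is written 5′ to 3′ on the gene's strand. Capitals mark matches to the heat shock element (all but Pdia6) or to the endoplasmic reticulum stress element (Pdia6).
Hspe1: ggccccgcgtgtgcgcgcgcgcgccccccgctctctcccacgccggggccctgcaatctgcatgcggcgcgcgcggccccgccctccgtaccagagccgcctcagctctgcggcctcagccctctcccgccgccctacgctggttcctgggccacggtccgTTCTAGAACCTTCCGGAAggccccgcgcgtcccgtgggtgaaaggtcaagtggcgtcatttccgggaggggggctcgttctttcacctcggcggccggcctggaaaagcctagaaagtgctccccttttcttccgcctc
Dnajb6: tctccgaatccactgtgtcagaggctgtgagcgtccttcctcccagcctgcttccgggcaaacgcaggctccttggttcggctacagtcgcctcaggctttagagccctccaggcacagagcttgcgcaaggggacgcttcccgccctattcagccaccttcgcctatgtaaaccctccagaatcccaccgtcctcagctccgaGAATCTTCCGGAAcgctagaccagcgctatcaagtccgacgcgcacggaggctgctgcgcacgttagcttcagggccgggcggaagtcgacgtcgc
Hspa1b: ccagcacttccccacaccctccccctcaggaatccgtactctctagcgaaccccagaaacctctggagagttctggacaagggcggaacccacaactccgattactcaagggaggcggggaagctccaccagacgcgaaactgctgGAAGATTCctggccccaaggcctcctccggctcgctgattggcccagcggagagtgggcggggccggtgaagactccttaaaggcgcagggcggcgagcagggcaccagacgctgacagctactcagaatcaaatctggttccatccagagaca
Hspb1: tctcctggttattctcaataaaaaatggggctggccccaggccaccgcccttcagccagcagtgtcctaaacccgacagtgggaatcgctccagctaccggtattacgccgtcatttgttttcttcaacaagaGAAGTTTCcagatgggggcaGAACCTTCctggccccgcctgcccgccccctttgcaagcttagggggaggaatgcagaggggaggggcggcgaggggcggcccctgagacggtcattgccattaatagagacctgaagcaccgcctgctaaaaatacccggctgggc
Hspb8: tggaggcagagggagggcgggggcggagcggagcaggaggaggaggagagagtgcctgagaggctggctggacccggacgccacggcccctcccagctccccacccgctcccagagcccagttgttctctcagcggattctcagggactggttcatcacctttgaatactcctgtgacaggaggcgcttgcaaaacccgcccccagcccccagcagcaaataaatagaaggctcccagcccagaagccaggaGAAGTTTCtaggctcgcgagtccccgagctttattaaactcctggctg
Pdia6: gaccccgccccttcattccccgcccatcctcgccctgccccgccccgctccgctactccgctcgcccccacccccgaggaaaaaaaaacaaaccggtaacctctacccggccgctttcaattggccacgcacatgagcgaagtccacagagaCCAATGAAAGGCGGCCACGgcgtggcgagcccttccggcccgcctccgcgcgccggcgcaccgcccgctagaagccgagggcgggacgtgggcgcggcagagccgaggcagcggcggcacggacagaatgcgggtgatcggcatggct

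The heat shock element was searched on both strands as the 2-unit forms GAANNTTC and TTCNNGAA, each of which reads the same on both strands, and as the 3-unit form that joins both of them with a shared middle unit. The 3-unit form stood in windows of 0.662% of all genes with a window and of 4 of the 51 matched members (7.84%): Dnajb6, Hspd1, Hspe1 and Hsph1. Hspd1 and Hspe1 lie head to head, and the Hspe1 window shares 285 bases with a window of Hspd1, so the capital run above belongs to both genes. GAANNTTC stood in windows of 9.04% of all genes and of 12 of the 51 matched members (23.5%). In the windows of Hspa1b, Hspb1 and Hspb8 it was the only form found. The match of Hspb8 lies after the start of transcription. TTCNNGAA stood in windows of 9.6% of all genes and of 8 of the 51 matched members (15.7%). Among the 14 members lower with benzamil, 11 had a window, and 6 of these held a 2-unit form (54.5%, against 31.4% of the 51 matched members and 17.0% of all genes in the table). Hspd1 and Hspe1 count among these 6 for 1 shared stretch. Dnaja1, Dnajb6 and Hspa1b, also among the 6, had enough reads to be tested only through their DMSO libraries. The 14 were called in these same data, so these shares are a description and were not tested. Both members higher with benzamil held GAANNTTC. The CCAAT box, searched as CCAAT on both strands, stood in windows of 9 of those 11 lower members and of 23 of the 51 matched members, against 41.1% of all genes. The endoplasmic reticulum stress element, searched on both strands, is a CCAAT box followed after 9 free bases by CCACG. It stood in windows of 0.137% of all genes and of 3 of the 51 matched members (5.88%): Pdia6, Dnajc3 and Hsp90b1. A match is a run of letters in the window and no evidence of binding.

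Benzamil with imiquimod was compared with DMSO with imiquimod to see what the channel blocker changed in inflamed skin. Many folding genes were lower with benzamil: the mitochondrial Hspa9, Hspd1 and Hspe1, the cytosolic Hspa8 and Hspa1b, the chaperonin subunits Cct3, Cct4 and Cct6a, and the endoplasmic reticulum genes Pdia6, Dnajb9 and Dnajb11. The small heat shock protein genes Hspb8 and Hspb1 were higher. A gene was called at an adjusted p under 0.05 in the quasi-likelihood test of edgeR, by the Benjamini-Hochberg method over the 5245 genes tested. Of the 49 tested members, 14 were called lower (28.6%, against 12.1% of all tested genes) and 2 higher (4.08%, against 9.91%). The median log2 fold change was -0.23 over the members and -0.01 over all tested genes. The read filter asked for 2 libraries at 34.9 CPM or more before scaling, and 7 of the 14 lower members met it only through their DMSO libraries, so they had to be high there to be tested: Cct4, Dnaja1, Dnajb6, Dnajb9, Dnajb11, Hspa1b and Hspa14. The same held for 36.0% of the 634 genes called lower among all tested genes, so the shares of tested genes are a description. With no filter 13 of 62 members were called lower, against 764 of 9779 genes. Without the deepest DMSO library (replicate 1) 6 members were called lower, without benzamil replicate 1 there were 7 and without benzamil replicate 2 there were 9. Dnaja1, Dnajb6, Dnajb11, Hspa14, Hspd1 and Hspe1 lost the call without DMSO replicate 1 and also without benzamil replicate 1. Without the 2 benzamil libraries of lowest depth (replicates 3 and 4) 9 were called lower. When every library was thinned to 71144 reads, 24 members were tested and 5 were called lower: Hspa1b, Hspa9, Hspd1, Dnajc3 and Hsp90b1.

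DMSO with imiquimod was compared with untreated skin for the change with inflammation. Here 8 of the 49 members were called higher (16.3%, against 9.88% of all tested genes) and 0 lower (against 8.48%). DESeq2 also gave 0 lower and limma 1, and 18 members had an unadjusted p under 0.05 in edgeR in either direction. Of these 8, Dnajb6 and Hspa1b passed the filter only through DMSO libraries. The median log2 fold change was 0.55 over the members and 0.18 over all tested genes. Hspa1b, Hspa9, Hspd1, Hspe1, Pdia6 and Dnajb6 were called in this comparison and, in the other direction, in benzamil over DMSO, while Hspa4 and Pdia3 were called in no other comparison. Without untreated replicate 1, 4 were called: Hspa4, Hspd1, Hspe1 and Pdia6. Both comparisons use the same DMSO libraries, so a high or low value in them enters both. Benzamil with imiquimod against untreated skin gave 1 call, Hspe1 (2.04%, against 2.44% of all tested genes higher), and 0 lower (against 1.6%). At an unadjusted p under 0.05 in edgeR there were 9 members, and DESeq2 called 0 in either direction.

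**Figure D1:**
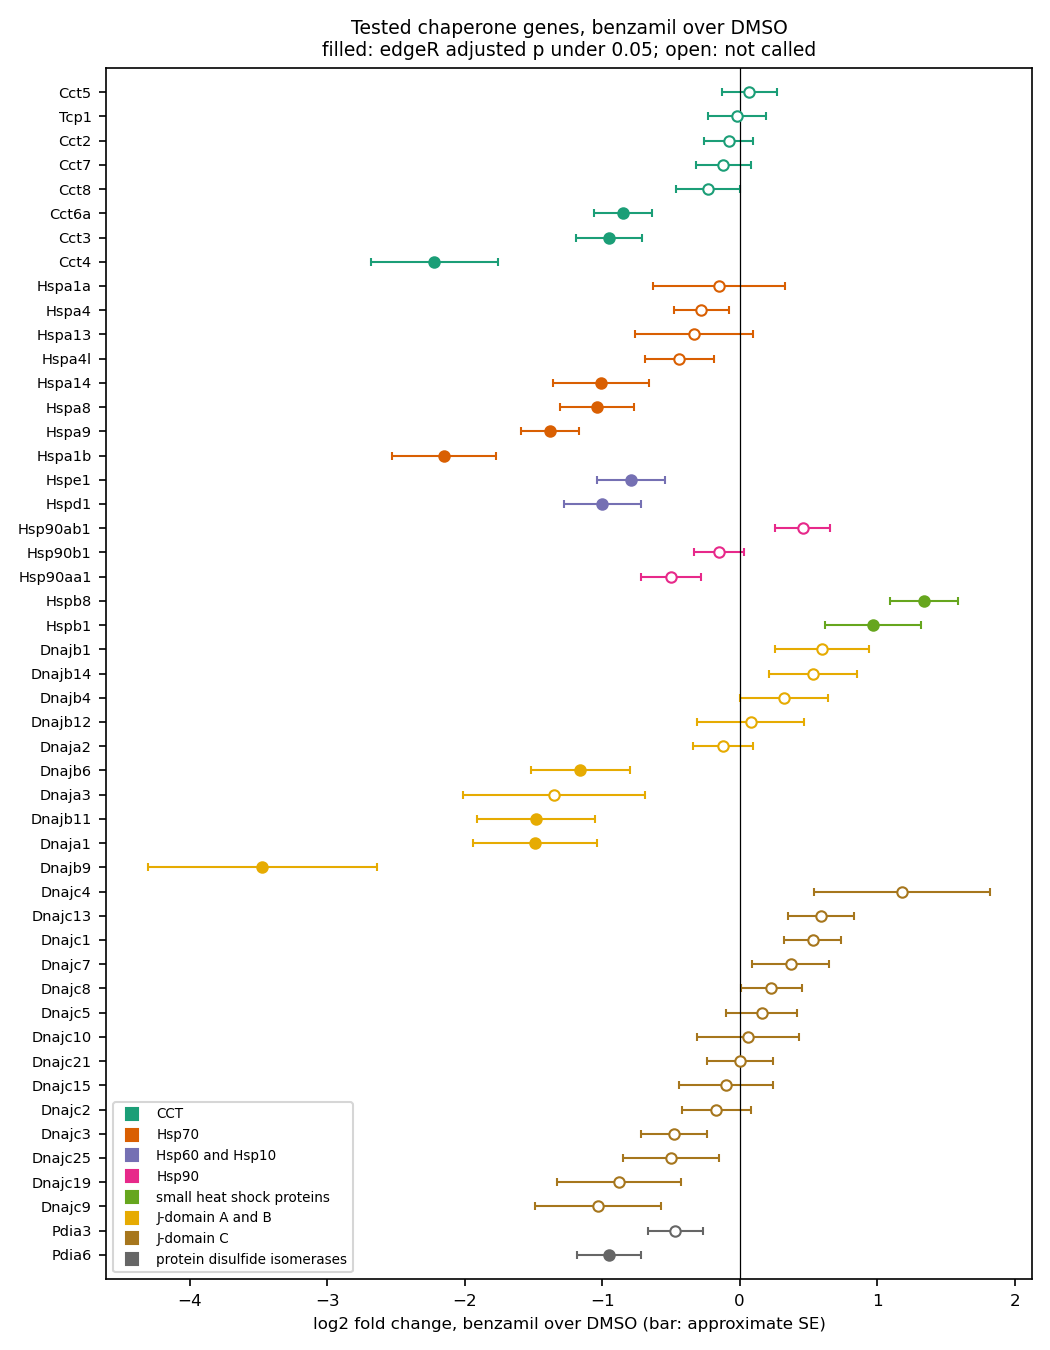
Log2 fold change of benzamil over DMSO (horizontal axis) for the 49 tested chaperone genes, grouped by family in colour, with the approximate standard error as a bar. Filled points passed an adjusted p of 0.05 in edgeR: 14 lie left of 0 and 2, Hspb8 and Hspb1, lie right of it, and all 14 J-domain C points are open.

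The cytosolic chaperonin is a double ring of 8 different subunits, and all 8 genes were tested. Of these, 3 fell with benzamil (37.5%, against 12.1% of all tested genes) and the other 5 were not called. Cct3 stood at 143, 149, 132 and 129 CPM in the DMSO libraries, at 80.5, 82.3, 44.3 and 67.8 with benzamil and at 76.7 and 56.4 without treatment. Every DMSO library lay above every other one. Cct3 fell by 0.95 ± 0.24 (SE) on the log2 scale with benzamil (edgeR adjusted p = 0.00555), a call lost without benzamil replicates 3 and 4 (adjusted p = 0.0779). Cct6a was at 369, 307, 209 and 266 CPM with DMSO, at 161, 155, 158 and 181 with benzamil and at 179 and 127 without treatment. The DMSO libraries again lay above the rest, and the benzamil and untreated libraries overlapped. Its level fell by 0.85 ± 0.21 with benzamil (edgeR adjusted p = 0.00542). Cct6a on chromosome 5 overlaps Psph on the opposite strand. Since the counting is not stated to use strand, reads in the stretch that both genes share cannot be told apart.

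Cct4 fell furthest among the subunits. It was at 71.9, 74.3, 38.3 and 63.2 CPM with DMSO and at 20.1, 12.7, 0 and 15.1 with benzamil, from 137 and 13 reads. Its log2 fold change was -2.22 ± 0.46 (edgeR adjusted p = 0.00111), and it was called under every alternative that gave a value. Cct4 passed the filter only through DMSO libraries, so it had to be high there to pass it. The untreated libraries, at 0 and 56.4 CPM, rest on 4 reads. Cct2 had the highest mean CPM of the family, 24.3% of its sum. It stood at 387, 387, 373 and 416 CPM with DMSO, at 339, 386, 417 and 339 with benzamil and at 268 and 395 without treatment. These groups overlapped, with a benzamil log2 fold change of -0.08 ± 0.18 (edgeR adjusted p = 0.791). Tcp1, Cct5, Cct7 and Cct8 had log2 fold changes of -0.02, 0.07, -0.12 and -0.23, with adjusted p of 0.493 or more, and Cct5 and Cct8 were highest in benzamil replicate 4.

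Against untreated skin no CCT gene was called with DMSO in edgeR (0 of 8, against 9.88% of all tested genes higher and 8.48% lower). In edgeR 3 had an unadjusted p under 0.05. DESeq2 also called 0, and limma called Cct3, Cct6a and Tcp1 higher. The largest log2 fold changes were 1.24 ± 0.77 for Cct4, 1.05 ± 0.43 for Cct3 and 1.02 ± 0.43 for Tcp1, with edgeR adjusted p of 0.27, 0.0851 and 0.0954. Benzamil over untreated values for Cct3 and Cct6a were 0.10 ± 0.47 and 0.08 ± 0.36 on the log2 scale (edgeR adjusted p = 0.928 and 0.926). Summed over the 8 genes, the family was at 1728 ± 136 CPM (SD, n = 4) with DMSO, 1444 ± 168 (n = 4) with benzamil and 1291 ± 89.8 (n = 2) without treatment.

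**Figure D2:**
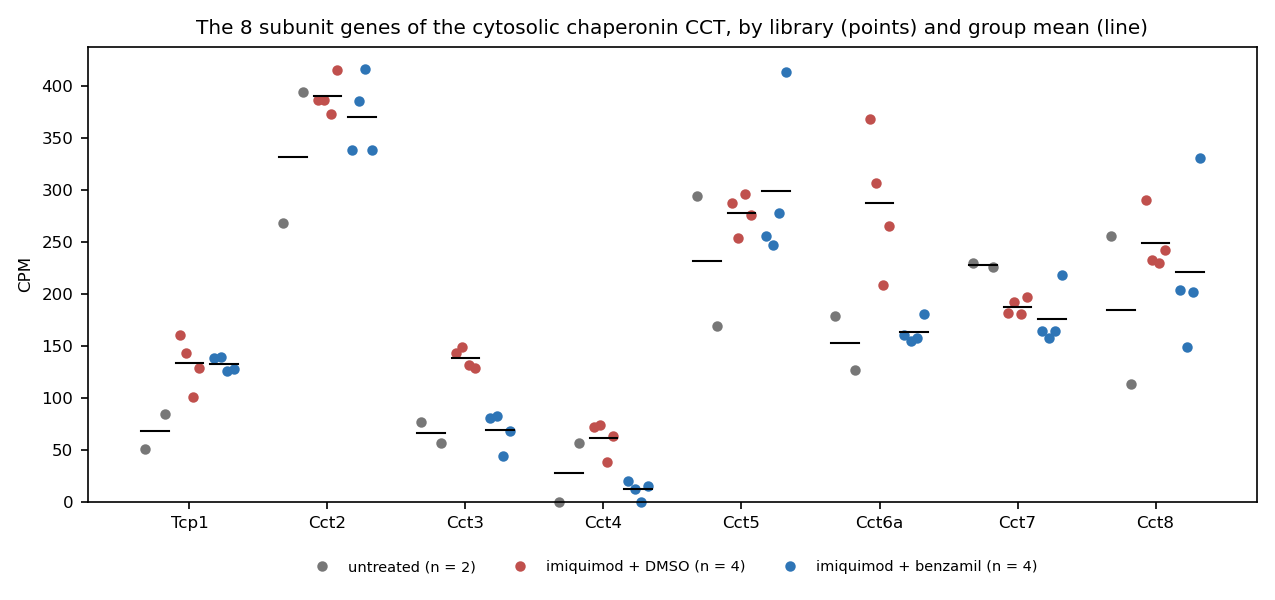
Level of the 8 CCT subunit genes in CPM (vertical axis) in each library (points) and as the group mean (line), for untreated, DMSO and benzamil libraries. Cct3, Cct4 and Cct6a show every DMSO point above every benzamil point, while for the other 5 genes the DMSO and benzamil points overlap.

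The Hsp70 family has 10 members here, of which 8 were tested. With benzamil 4 of the 8 fell (against 12.1% of all tested genes), and the other 4 had negative log2 fold changes that were not called. Among the lower genes, Hspa1b and Hspa14 passed the filter only through DMSO libraries, so they had to be high there to be tested. Hspa8 encodes the constitutive cytosolic Hsp70. It was at 162, 113, 97.6 and 92.1 CPM with DMSO, at 51.7, 72.8, 63.2 and 37.6 with benzamil and at 38.3 and 56.4 without treatment. The DMSO libraries lay above all others. Hspa8 fell by 1.04 ± 0.27 on the log2 scale with benzamil (edgeR adjusted p = 0.00784), which was lost without DMSO replicate 1 (adjusted p = 0.0642) and without benzamil replicates 3 and 4 (adjusted p = 0.0652). DMSO over untreated gave 1.35 ± 0.52 (edgeR adjusted p = 0.0713).

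Hspa1b and Hspa1a encode the stress-inducible cytosolic Hsp70. They lie 9951 bases apart on the minus strand of chromosome 17 (Hspa1b from 34956436 to 34959238, Hspa1a from 34969190 to 34972156 on mm10) and are near-identical copies, so the authors' counting may have split or dropped reads that fit both. Hspa1b was at 127, 123, 73.2 and 68.4 CPM with DMSO, at 28.7, 31.7, 6.32 and 7.53 with benzamil and at 0 and 14.1 without treatment. No benzamil or untreated library reached the lowest DMSO library. The log2 fold change with benzamil was -2.15 ± 0.38 (edgeR adjusted p = 0.000235), the largest fall in the family, and it was called under all 20 alternatives. Hspa1b had to be high with DMSO to pass the filter. Untreated skin had 1 read of Hspa1b against 224 with DMSO, a 16.1-fold ratio (95% counting interval 2.86 to 639, edgeR adjusted p = 0.00815), and the call was lost without untreated replicate 1 (adjusted p = 0.0984) and in DESeq2 (adjusted p = 0.0712). Hspa1a was not called. It stood at 28.6, 23, 27.9 and 31.6 CPM with DMSO and at 31.6, 38, 12.6 and 0 with benzamil, with a log2 fold change of -0.15 ± 0.48 (edgeR adjusted p = 0.861). The ratio of mean CPM of Hspa1b to Hspa1a was 3.53 with DMSO, 0.903 with benzamil and 0.333 without treatment, the last from 1 and 3 reads. The difference between the 2 copies was not tested.

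Hspa4 and Hspa4l belong to the Hsp110-like branch, which exchanges the nucleotide of Hsp70. Hspa4 was at 224, 261, 216 and 208 CPM with DMSO, at 190, 149, 202 and 226 with benzamil and at 76.7 and 70.5 without treatment. Both imiquimod groups lay above the untreated libraries and overlapped each other. DMSO over untreated rose by 1.62 ± 0.39 on the log2 scale (edgeR adjusted p = 0.00492), which was called under all 20 alternatives. Benzamil over untreated was 1.34 ± 0.40 (edgeR adjusted p = 0.0563), and benzamil over DMSO -0.28 ± 0.20 (edgeR adjusted p = 0.334). Hspa4l gave -0.44 ± 0.25 with benzamil (edgeR adjusted p = 0.225). Hspa14, which works at the ribosome, was at 61.1, 46.1, 48.8 and 39.5 CPM with DMSO and at 31.6, 22.2, 12.6 and 30.1 with benzamil, without overlap. It fell by 1.01 ± 0.35 (edgeR adjusted p = 0.0402), a call lost under 12 of 19 alternatives, and its gene overlaps Gm45902 on the same strand. Dnajc2, its J-domain partner at the ribosome, gave -0.17 ± 0.25 (edgeR adjusted p = 0.673). Hspa13, of the endoplasmic reticulum, rested on 23 benzamil and 64 DMSO reads and gave -0.33 ± 0.43 (edgeR adjusted p = 0.626).

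The mitochondrial chaperones moved together in direction: Hspa9, the Hsp70 of the matrix, Hspd1, the Hsp60 barrel, and Hspe1, its Hsp10 lid, all fell with benzamil and all were higher with DMSO than without treatment. Hspa9 was at 341, 361, 282 and 276 CPM with DMSO, at 132, 142, 101 and 90.3 with benzamil and at 115 and 155 without treatment. The lowest DMSO library stood well above the highest of the others. Hspa9 fell by 1.38 ± 0.21 on the log2 scale with benzamil, with the smallest adjusted p of all members (edgeR adjusted p = 5.89e-05), under all 20 alternatives. DMSO over untreated was 1.23 ± 0.34 (edgeR adjusted p = 0.0119), lost without untreated replicate 1 (adjusted p = 0.103), and benzamil over untreated was -0.15 ± 0.37 (edgeR adjusted p = 0.869).

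Hspd1 (chromosome 1, 55077835 to 55088243, minus strand) and Hspe1 (55088132 to 55091307, plus strand) overlap by 112 bases at their starts. Hspd1 was at 151, 118, 90.6 and 92.1 CPM with DMSO, at 46, 50.6, 75.9 and 75.3 with benzamil and at 38.3 and 14.1 without treatment, and none of the 3 groups overlapped. Hspd1 fell by 1.00 ± 0.28 with benzamil (edgeR adjusted p = 0.0118), lost without DMSO replicate 1 (adjusted p = 0.0729) or benzamil replicate 1 (adjusted p = 0.0678). It rose by 2.10 ± 0.61 with DMSO over untreated (edgeR adjusted p = 0.0174), lost without untreated replicate 2 (adjusted p = 0.102) and in DESeq2 (adjusted p = 0.0611). Hspe1 followed the same order of groups, at 121, 97.3, 115 and 103 CPM with DMSO, 63.2, 57, 63.2 and 75.3 with benzamil and 12.8 and 0 without treatment. It fell by 0.79 ± 0.25 with benzamil (edgeR adjusted p = 0.0264), lost under 5 of 20 alternatives, among them without DMSO replicate 1, benzamil replicate 1 or benzamil replicate 2 (adjusted p = 0.085, 0.0748 and 0.0785).

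Hspe1 was also the only member called in all 3 comparisons, on 1 untreated read. Against that read, 233 DMSO reads gave a 16.8-fold ratio (95% counting interval 2.98 to 665, edgeR adjusted p = 0.00115, DESeq2 adjusted p = 0.0504). The 60 benzamil reads gave a ratio of 9.37 (1.62 to 376, edgeR adjusted p = 0.0415), a call lost under 12 of 19 alternatives. The ratio of the mean CPM of Hspe1 to that of Hspd1 was 0.967 with DMSO, 1.04 with benzamil and 0.244 without treatment, the last from 1 and 4 reads. J-domain partners of the matrix were weaker in reads: Dnaja3, the partner of Hspa9, stood at 24.6, 33.3, 13.9 and 21.1 CPM with DMSO and at 17.2, 9.5, 0 and 0 with benzamil (log2 fold change -1.35 ± 0.66, edgeR adjusted p = 0.142). The gene overlaps Vasn on the same strand and Coro7 on the opposite strand. Dnajc19, of the import motor, gave -0.88 ± 0.45 (edgeR adjusted p = 0.16), and Dnajc15, of the inner membrane, -0.10 ± 0.34 (edgeR adjusted p = 0.869). Of 9 tested import and folding partners that are no members, 2 were called lower with benzamil (22.2%, against 12.1% of all tested genes) and 0 higher. Tomm40 and Tomm22, of the import pore in the outer membrane, fell with benzamil (log2 fold change -2.80 ± 0.60 and -1.35 ± 0.36, edgeR adjusted p = 0.00155 and 0.00983). Both passed the filter only through DMSO libraries, so they had to be high there to be tested.

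The Hsp90 family was dominated by 1 gene, the only 1 of its 3 with a positive log2 fold change for benzamil over DMSO. Hsp90ab1, the constitutive cytosolic Hsp90, made up 82.1% of the family's mean summed CPM and 33.2% of that of all members. It was at 2260, 1940, 1920 and 2130 CPM with DMSO, at 2760, 2550, 3180 and 2900 with benzamil and at 3810 and 2370 without treatment. The DMSO libraries were the lowest and did not overlap with either group, and the benzamil and untreated libraries overlapped. Neither difference was called in edgeR: benzamil over DMSO was 0.46 ± 0.20 (adjusted p = 0.101) and DMSO over untreated -0.58 ± 0.25 (adjusted p = 0.0983). The authors' deposited table gives 0.42 ± 0.14 for benzamil over DMSO with an adjusted p of 0.0259, and a fit of those groups alone gave 0.49 (edgeR adjusted p = 0.0464). Without untreated replicate 1 the DMSO over untreated value was -0.08, and in libraries thinned to equal depth it was -0.70 (edgeR adjusted p = 0.0429). Hsp90aa1, the inducible cytosolic form, stood at 223, 182, 132 and 166 CPM with DMSO and at 129, 130, 139 and 105 with benzamil, a log2 fold change of -0.50 ± 0.22 (edgeR adjusted p = 0.0989). Hsp90b1, the Hsp90 of the endoplasmic reticulum, gave -0.15 ± 0.18 with benzamil and 0.55 ± 0.27 with DMSO over untreated (edgeR adjusted p = 0.606 and 0.154). Hsph1, the inducible Hsp110, had 35 DMSO, 11 benzamil and 4 untreated reads and was not tested. It stood at 18.7, 12.8, 20.9 and 13.2 CPM with DMSO, at 8.62, 6.33, 25.3 and 15.1 with benzamil and at 12.8 and 42.3 without treatment, and DMSO and benzamil overlapped.

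Small heat shock proteins were the members that rose with benzamil. Hspb8 acts with the cochaperone Bag3 in the removal of misfolded proteins. It was at 90.6, 56.3, 55.8 and 44.7 CPM with DMSO, at 172, 158, 158 and 181 with benzamil and at 38.3 and 127 without treatment. Every benzamil library lay above all the rest. Hspb8 (chromosome 5, 116408491 to 116422864, minus strand) rose by 1.34 ± 0.25 on the log2 scale (edgeR adjusted p = 0.00053), and the call was lost only when every library was thinned to the shallowest (adjusted p = 0.425). With DMSO over untreated it gave -0.30 ± 0.50 (edgeR adjusted p = 0.707), and the sign turned to 0.94 without untreated replicate 2. Hspb1 (chromosome 5, 135887919 to 135889563, plus strand), which binds actin and keratin filaments, was at 54.2, 28.2, 27.9 and 31.6 CPM with DMSO, at 103, 98.1, 25.3 and 45.2 with benzamil and at 12.8 and 42.3 without treatment. Benzamil replicates 1 and 2 were high and replicates 3 and 4 lay within or below the DMSO range. Its log2 fold change of 0.97 ± 0.35 (edgeR adjusted p = 0.0448) was lost under 11 of 19 alternatives, among them benzamil replicate 1 or 2 left out (adjusted p = 0.231 and 0.17). Hspb6 and Hspb7, known from muscle, were not tested. Hspb6 had 18 DMSO, 21 benzamil and 1 untreated reads, and Hspb7 had 11, 14 and 6, beside skeletal muscle marker sums that overlapped between DMSO and benzamil libraries and were highest in untreated ones.

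**Figure D3:**
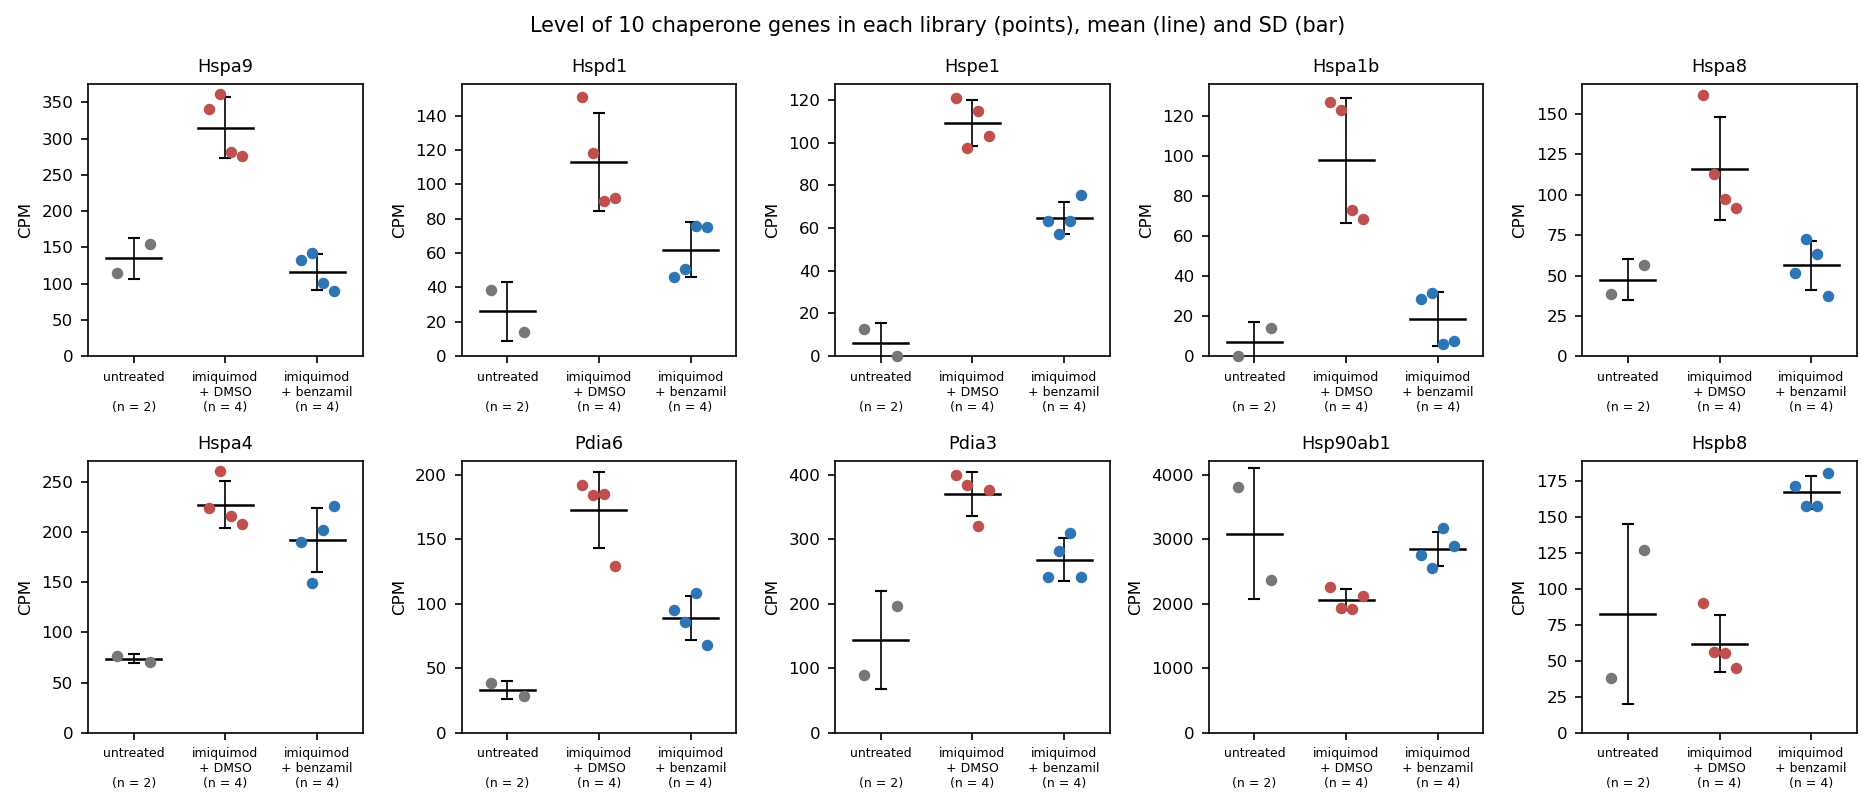
Level in CPM (vertical axis, from 0) of 10 chaperone genes in each library (points), with the group mean (line) and SD (bar), for untreated, DMSO and benzamil libraries. Hspa9, Hspd1, Hspe1, Hspa1b, Hspa8 and Pdia6 are highest with DMSO without overlap with benzamil, while Hsp90ab1 is lowest with DMSO and Hspb8 highest with benzamil.

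J-domain proteins of types A and B start the Hsp70 cycle. Of 13 members 10 were tested, and 4 fell with benzamil (40.0%, against 12.1% of all tested genes): Dnaja1, Dnajb6, Dnajb9 and Dnajb11. All 4 passed the filter only through DMSO libraries, so they had to be high there to pass it. These calls rest on few reads. Dnaja1, a cytosolic partner of Hsp70, was at 61.1, 48.7, 27.9 and 26.3 CPM with DMSO and at 11.5, 25.3, 6.32 and 15.1 with benzamil, from 99 and 15 reads. The closest libraries of the groups were 26.3 and 25.3 CPM. Dnaja1 fell by 1.49 ± 0.45 on the log2 scale (edgeR adjusted p = 0.0201), lost without DMSO replicate 1 (adjusted p = 0.145), benzamil replicate 1 (adjusted p = 0.0891) or benzamil replicate 3 (adjusted p = 0.0593) and in DESeq2 (adjusted p = 0.0521). The gene overlaps Smu1 on the opposite strand.

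Dnajb6, which keeps aggregation-prone proteins and keratins soluble, was at 68.9, 89.6, 62.7 and 44.7 CPM with DMSO, at 25.9, 28.5, 12.6 and 60.2 with benzamil and at 0 in both untreated libraries. Benzamil replicate 4 lay within the DMSO range. It fell by 1.16 ± 0.36 with benzamil (edgeR adjusted p = 0.0222), lost without DMSO replicate 1 or 2 (adjusted p = 0.0573 and 0.072), without benzamil replicate 1, 2 or 3 (adjusted p = 0.0898, 0.0613 and 0.0725) and in limma (adjusted p = 0.0508). Against the floor of 3 reads over the untreated group, Dnajb6 was at least 3.36-fold higher with DMSO (edgeR adjusted p = 0.00763), lost without untreated replicate 1 (adjusted p = 0.0641).

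Dnajb9 and Dnajb11 work in the endoplasmic reticulum as partners of its Hsp70. Dnajb9 was at 34.5, 10.2, 24.4 and 34.2 CPM with DMSO and at 5.75, 0, 0 and 0 with benzamil. The 59 DMSO reads against 2 benzamil reads gave a 13.6-fold ratio (95% counting interval 3.60 to 115, edgeR adjusted p = 0.00385). It was called under all 11 alternatives that gave it an adjusted p and dropped out under the others. Since Dnajb9 passed the filter only through DMSO libraries, a filtered fit tested it only where it was high there. Dnajb11 was at 63, 46.1, 34.8 and 39.5 CPM with DMSO and at 14.4, 6.33, 25.3 and 37.6 with benzamil, where replicate 4 reached the DMSO range. Dnajb11 fell by 1.48 ± 0.43 (edgeR adjusted p = 0.015), lost without DMSO replicate 1 or benzamil replicate 1 or 2 (adjusted p = 0.104, 0.0682 and 0.085) and in limma and DESeq2 (adjusted p = 0.0632 and 0.0506).

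Dnaja2 had the highest mean CPM of this family, at 181, 123, 125 and 171 CPM with DMSO, 167, 146, 114 and 120 with benzamil and 115 and 70.5 without treatment. The treated groups overlapped, with a benzamil log2 fold change of -0.12 ± 0.22 (edgeR adjusted p = 0.738). Dnajb1, the inducible partner of Hsp70, pointed the other way without a call. It was at 56.1, 35.8, 34.8 and 55.3 CPM with DMSO and at 69, 79.1, 69.6 and 67.8 with benzamil, without overlap, at 0.60 ± 0.34 (edgeR adjusted p = 0.216). Dnajb4, Dnajb12 and Dnajb14 had log2 fold changes of 0.32, 0.08 and 0.53 with benzamil, and none was called.

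J-domain proteins of type C are a mixed group with roles in the ribosome, mitochondria, endosomes and synaptic vesicles. Of 21 members 14 were tested, and 0 were called between benzamil and DMSO in edgeR, DESeq2 or limma, with 3 at an unadjusted p under 0.05 in edgeR. Over all tested genes edgeR called 12.1% lower and 9.91% higher. The median log2 fold change of the 14 was 0.03. Dnajc13, an endosomal J-domain protein, had the highest mean CPM. It was at 102, 138, 83.6 and 158 CPM with DMSO, at 184, 171, 152 and 226 with benzamil and at 307 and 141 without treatment. Benzamil replicate 3 lay within the DMSO range, and the log2 fold change was 0.59 ± 0.24 (edgeR adjusted p = 0.0746). Dnajc1, of the endoplasmic reticulum, was at 130, 97.3, 105 and 108 CPM with DMSO and at 175, 152, 164 and 151 with benzamil, without overlap (0.53 ± 0.21, edgeR adjusted p = 0.0713). Dnajc3, an inhibitor of eIF2 alpha kinases that also acts in the endoplasmic reticulum, gave -0.48 ± 0.24 (edgeR adjusted p = 0.146), and Dnajc9, a histone-binding J-domain protein, -1.03 ± 0.46 (edgeR adjusted p = 0.108). Dnajc10, a reductase of the endoplasmic reticulum, gave 0.06 ± 0.37 with 100 DMSO and 49 benzamil reads (edgeR adjusted p = 0.933). Dnajc5, the cysteine string protein of vesicles, gave 0.16 ± 0.26, and Dnajc7, which binds Hsp70 and Hsp90, 0.37 ± 0.28 (edgeR adjusted p = 0.692 and 0.363). With DMSO over untreated 0 of the 14 were called in edgeR (against 9.88% of all tested genes higher and 8.48% lower). In edgeR 4 had an unadjusted p under 0.05. DESeq2 also called 0, while limma called Dnajc3 and Dnajc15 higher, Dnajc4 lower and Dnajc24, which edgeR did not test, higher. Dnajc4 passed the read filter through its untreated level alone and had 14 DMSO and 6 untreated reads.

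Protein disulfide isomerases were represented by Pdia3, which serves glycoproteins bound to calnexin and calreticulin, and Pdia6. Pdia6 (chromosome 12, 17266545 to 17284770, plus strand) was at 192, 184, 185 and 129 CPM with DMSO, at 94.9, 85.5, 108 and 67.8 with benzamil and at 38.3 and 28.2 without treatment. None of the 3 groups overlapped, in the order DMSO, benzamil, untreated. It fell by 0.95 ± 0.23 on the log2 scale with benzamil (edgeR adjusted p = 0.00412), lost only in thinned libraries (adjusted p = 0.571), and rose by 2.36 ± 0.50 with DMSO over untreated (edgeR adjusted p = 0.0019), called under all 20 alternatives. The benzamil over untreated value was 1.41 ± 0.56 (edgeR adjusted p = 0.157). Pdia6 overlaps Atp6v1c2 on the opposite strand.

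Pdia3 was at 400, 384, 321 and 376 CPM with DMSO, at 241, 282, 310 and 241 with benzamil and at 89.4 and 197 without treatment, in the same order and without overlap. DMSO over untreated rose by 1.39 ± 0.33 (edgeR adjusted p = 0.00508), lost without untreated replicate 1 (adjusted p = 0.104). With benzamil the log2 fold change of -0.47 ± 0.20 was not called (edgeR adjusted p = 0.0836). Of 10 tested genes of secretory pathway folding outside the members, 4 fell with benzamil (40.0%, against 12.1% of all tested genes) and 0 rose. With DMSO over untreated, where the same DMSO libraries enter, 4 were called higher (40.0%, against 9.88%) and 0 lower. The 4 genes were P4hb, Selenof, Ppib and Manf in both comparisons. P4hb, another protein disulfide isomerase, was at 354 ± 25.1 CPM (SD, n = 4) with DMSO, 153 ± 58.1 (n = 4) with benzamil and 73.6 ± 4.33 (n = 2) without treatment, and fell by 1.13 ± 0.22 with benzamil (edgeR adjusted p = 0.000646). Selenof, Ppib and Manf fell with benzamil (log2 fold change -1.46, -1.60 and -1.47, edgeR adjusted p = 0.00333, 0.0042 and 0.0053) and had 0 untreated reads. These 3 passed the filter only through DMSO libraries.

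Summed by family, the Hsp70 genes were at 1030 ± 121 CPM (SD, n = 4) with DMSO, 584 ± 67.8 (n = 4) with benzamil and 466 ± 99.0 (n = 2) without treatment. Hsp60 with Hsp10 summed to 222 ± 34.3, 127 ± 21.6 and 32.6 ± 26.2 CPM in the same order, and the protein disulfide isomerases to 543 ± 44.2, 357 ± 46.6 and 177 ± 69.2. In these 3 families no DMSO library overlapped with a benzamil library, with log2 ratios of benzamil over DMSO of -0.82, -0.81 and -0.60. Hsp90 ran the other way, at 2694 ± 218, 3381 ± 283 and 3586 ± 963 CPM and a log2 ratio of 0.33, which was -0.24 without Hsp90ab1. Small heat shock proteins summed to 111 ± 34.6, 269 ± 53.8 and 158 ± 115 CPM, a log2 ratio of 1.27. J-domain A and B genes (541 ± 65.1, 447 ± 66.7 and 339 ± 119) and J-domain C genes (1095 ± 104, 1177 ± 31.1 and 1203 ± 485) overlapped between DMSO and benzamil. Over all 62 members the sums were 7980 ± 631, 7801 ± 204 and 7281 ± 1140 CPM, so the families offset each other in the total. Without Hsp90ab1 the log2 ratio of the total for benzamil over DMSO went from -0.03 to -0.26. Scaling by library totals alone moved the median of all tested genes from -0.01 to -0.24 in benzamil over DMSO and the total of the members to -0.28. The Hsp90 ratio was then 0.07 and that of the J-domain C genes turned from 0.10 to -0.14, and the share of all calls that were higher was 21.6% in place of 45.1%. These sums were not tested.

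**Figure D4:**
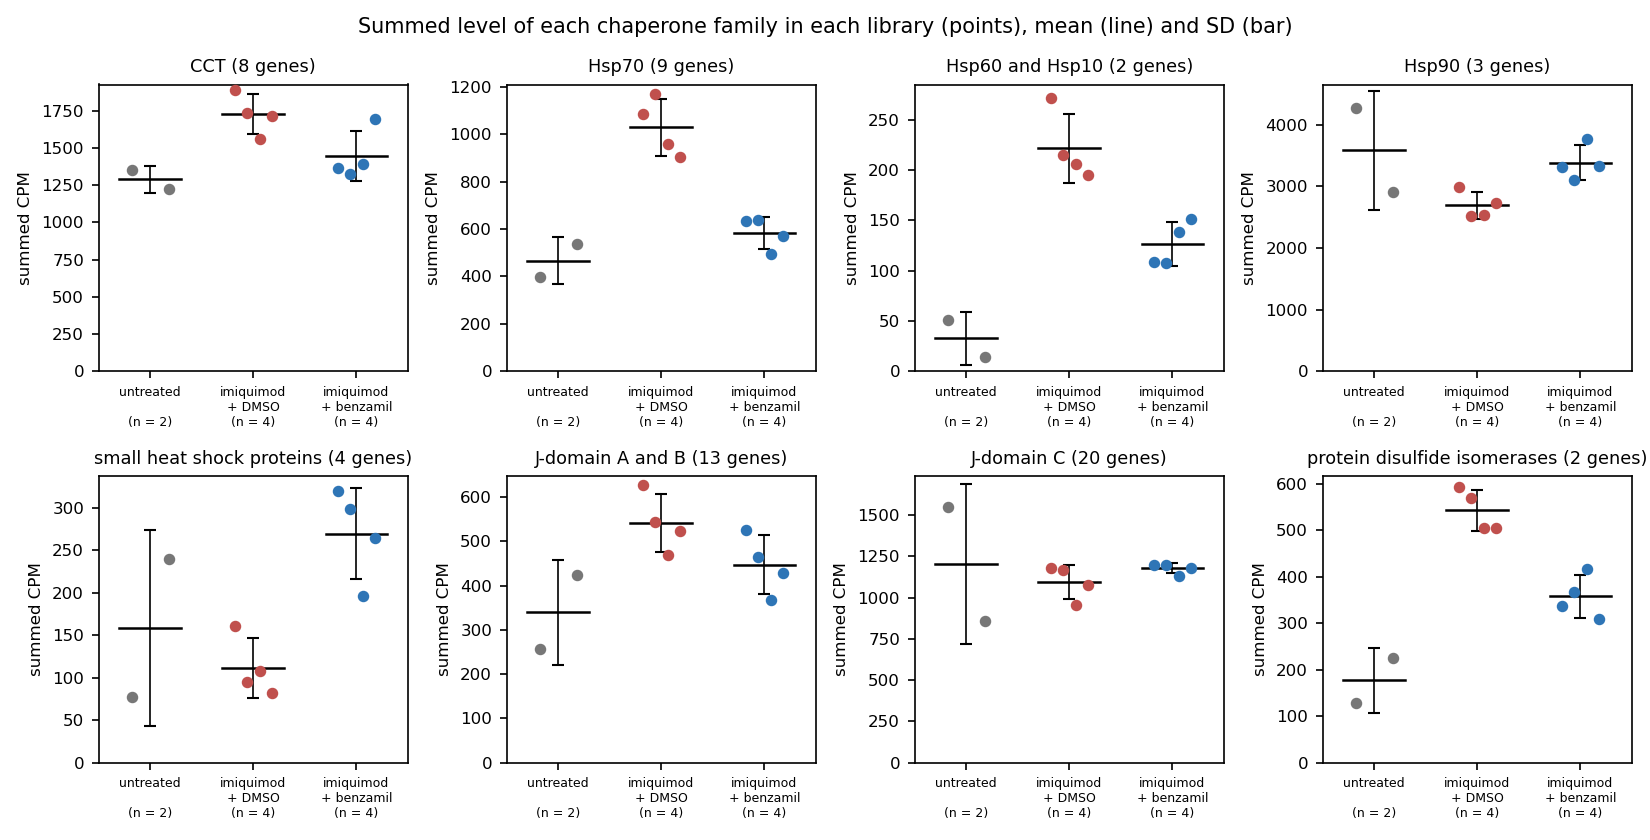
Summed level in CPM (vertical axis, from 0) of the members of each of 8 families in each library (points), with the group mean (line) and SD (bar), for untreated, DMSO and benzamil libraries. Hsp70, Hsp60 with Hsp10 and the protein disulfide isomerases are highest with DMSO, at mean sums of 1030, 222 and 543 CPM, while small heat shock proteins are highest with benzamil at 269.

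Helpers of the chaperones were counted in the same way. Of 19 tested cochaperones of Hsp90 and Hsp70, 2 were called lower with benzamil (10.5%, against 12.1% of all tested genes) and 1 higher (5.26%, against 9.91%). Ptges3, the p23 cochaperone of Hsp90, fell by 1.27 ± 0.28 with benzamil (edgeR adjusted p = 0.00231). Tomm70a, a mitochondrial receptor for Hsp90 and Hsp70 clients, fell by 0.95 ± 0.28 (edgeR adjusted p = 0.0153). Stub1, the ubiquitin ligase CHIP that marks chaperone clients for degradation, rose by 0.80 ± 0.28 (edgeR adjusted p = 0.0375). Among the 10 tested genes of prefoldin and of tubulin or actin folding, 2 were called lower (20.0%) and 1 higher (10.0%). The prefoldin subunit genes Pfdn1 and Vbp1 fell (log2 fold change -1.10 ± 0.32 and -1.07 ± 0.38, edgeR adjusted p = 0.0155 and 0.0461), while Pfdn5 rose by 0.93 ± 0.23 (edgeR adjusted p = 0.00482). Vbp1 passed the filter only through DMSO libraries. Prefoldin hands actin and tubulin chains to CCT. Of 6 tested heat shock regulators and induced genes, 2 were called higher (33.3%) and 1 lower (16.7%). Hmox1, heme oxygenase, and Dedd2 rose by 1.23 ± 0.31 and 1.00 ± 0.30, and Ier5, a regulator of heat shock factor, fell by 1.25 ± 0.33 (edgeR adjusted p = 0.00634, 0.0175 and 0.00848). With DMSO over untreated, Tomm70a, Pfdn2, Tomm22 and Ier5 were called higher and Pfdn5 lower across these 4 lists, of which Tomm22 had 0 untreated reads. Over all tested genes edgeR called 9.88% higher and 8.48% lower in that comparison. With benzamil over untreated 0 genes of the 5 lists were called in edgeR (against 2.44% of all tested genes higher and 1.6% lower).

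Members left out of the test had few reads. The filter left out 13 of the 62 members in both tables: Dnaja4, Dnajb2, Dnajb3, Dnajc11, Dnajc14, Dnajc16, Dnajc18, Dnajc24, Dnajc30, Hspa12a, Hspb6, Hspb7 and Hsph1. Their DMSO group totals ran from 9 reads for Dnajb3 and Dnajc18 to 51 for Dnajc11. Hspa12a, an atypical Hsp70, had 21 DMSO, 24 benzamil and 4 untreated reads. Hspa2, the testis-enriched Hsp70, and Dnajc17 were in the benzamil table alone, with 4, 3, 1 and 0 reads for Hspa2 and 7, 1, 1 and 0 for Dnajc17 in the DMSO libraries. The benzamil libraries held 5, 5, 0 and 1 reads of Hspa2 and 2, 2, 0 and 2 of Dnajc17.

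The authors' deposited DESeq2 tables list 64 members for benzamil over DMSO, with 2 higher (Hspb8 and Hsp90ab1) and 9 lower (Cct3, Cct4, Cct6a, Dnajb9, Hspa1b, Hspa8, Hspa9, Hspd1 and Pdia6) at an adjusted p under 0.05. Their table of untreated over DMSO lists 62 members, with 6 lower without treatment (Dnajb6, Hspa4, Hspa9, Hspe1, Pdia3 and Pdia6) and 0 higher. All 9 lower genes of the first table and all 6 of the second are among the edgeR calls above, which rest on the same reads. Hsp90ab1 was not called in edgeR. In the other direction, the edgeR calls Hspb1, Dnaja1, Dnajb6, Dnajb11, Hspa14 and Hspe1 for benzamil over DMSO were not under 0.05 in the authors' table. Nor were Hspa1b and Hspd1 for the untreated comparison.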

How the data were processed

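The libraries came from 500 ng of RNA and a kit that reads the 3′ end of messenger RNA with molecular identifiers, per the labels' protocols, so reads were not divided by gene length. The tools named in the submitters' processing notes are STAR, featureCounts and DESeq2, with the build mm10. Their versions, the strand setting and any collapsing of identifiers were not given in the sources used here, and counting intervals cover counting error only. The authors deposited 2 tables of variance-stabilised log2 values (benzamil with DMSO, untreated with DMSO), each normalized separately. Their DESeq2 tables, also deposited, hold a mean signal, a log2 fold change with its SE, a Wald score, a p-value and an adjusted p-value. A further deposited table of counts has 61533 human identifiers and 0 mouse identifiers and entered no comparison.

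The log2 values were inverted to reads: 100% came out whole within 0.001 reads, and 39116 of 39116 DMSO values were equal in both tables. The 9779 genes in both tables were joined, so that 874 genes found in the first table alone and 41 found in the second alone were left out. All 10 libraries entered 1 fit in edgeR 4.0.16 (R 4.3.3) with TMM scaling, and filterByExpr (minimum count 10, minimum total 15) kept 5245 genes. CPM are reads for each 1000000 of the TMM-scaled library. Calls used an adjusted p under 0.05 (Benjamini-Hochberg, over all tested genes). Alternatives were other scalings, no filter, ribosomal RNA genes left out, libraries thinned to 71144 reads, the compared groups alone, a replicate block, each library left out, DESeq2 1.42.0, and limma 3.58.1 on the deposited log2 values (not possible for benzamil over untreated). Leaving out benzamil replicates 3 and 4 was added after seeing the data. The code was tested on simulated data.

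Members, families, the other gene lists and the marker lists were chosen with earlier results of these data known, so no list was tested as a set. Named with values in each library were members called in any comparison and the member of highest mean CPM in each family, with Hspa1a, Hsp90aa1, Dnaja3, Dnajb1 and Dnajc1 added after their values were seen, and, from the other lists, up to 4 called genes per comparison. Coordinates are those of GENCODE M21 on mm10. Besides the overlaps given above, further tested members overlap a gene of the tables on the opposite strand. These are Cct7 (Pradc1), Cct8 (Usp16), Tcp1 (Mrpl18), Dnajc1 (Mllt10), Dnajc7 (Nkiras2) and Dnajc19 (Fxr1).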

Additional observations from a re-analysis of the deposited data

Results flagged for a closer look

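Of 66 groups of 4 samples looked at, 4 had a sample set apart from the others by Dixon's 95% criterion, which chance meets in about 1 in 20 groups. Dnajb9 was at 5.75 CPM (2 reads) in benzamil replicate 1 and at 0 in the other 3 benzamil libraries. Beside 3 values at 0 any read meets the criterion, so the rate of 1 in 20 does not apply to Dnajb9. Hspb1 was at 54.2 CPM in DMSO replicate 1 against 27.9 to 31.6 in the other 3, and without that library the log2 fold change of benzamil over DMSO was 1.36. Pdia6 was lowest in DMSO replicate 4 at 129 CPM against 184 to 192 in the others, and was still called lower with benzamil without it. The summed CCT genes were highest in benzamil replicate 4 at 1694 CPM against 1329 to 1391, and without it the log2 ratio of benzamil over DMSO was -0.34 in place of -0.26.

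The deposited table of counts with human identifiers, which no comparison used, also holds reads on chaperone genes. It has rows for the capitalised symbols of all 64 members, and these hold 5368 counts over the 10 libraries, from 65 in untreated replicate 2 to 2170 in DMSO replicate 1. These are between 0.743% and 1.58% of the table's counts in a library. Why mouse libraries were counted on human identifiers is not given in the sources used here.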

How the results depend on the processing

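The counts of called members moved with the setting. In benzamil over DMSO, the 2 members called higher were 1 with RLE size factors, library totals alone, no filter, the replicate block, limma and DESeq2, 0 in thinned libraries and 5 in a fit of the 2 groups alone, and ranged from 1 to 2 with a library left out. The 14 called lower were 5 in thinned libraries, where 24 members were tested, and 9 without benzamil replicates 3 and 4, and ranged from 6 to 14 with a library left out. In DMSO over untreated, the 8 called higher were 17 in limma and 5 in DESeq2 and ranged from 4 to 9 with a library left out. The 0 called lower became 1 in thinned libraries (Hsp90ab1), in the fit of the 2 groups alone (Dnajc4) and in limma (Dnajc4), and ranged from 0 to 1. In benzamil over untreated, the 1 called higher was 0 with library totals alone, the replicate block, thinned libraries, the 2 groups alone, without benzamil replicates 3 and 4 and in DESeq2, 2 without a filter, and 0 to 2 with a library left out. When an untreated library was left out, the lone other one was assumed to vary like the other groups. The cause of these shifts was not tested, apart from the fewer genes tested in thinned libraries.

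The summed level of all members, benzamil over DMSO, went from -0.03 on the log2 scale to -0.28 with library totals alone and to -0.26 without Hsp90ab1. The DMSO over untreated sum went from 0.13 to 0.50 without Hsp90ab1. Benzamil over untreated went from 0.10 to -0.07 with library totals alone and ranged from -0.05 to 0.27 with a library left out. Among single genes, the directions that turned all belonged to uncalled differences: Cct2 (0.07) and Dnaja2 (0.14) for benzamil over DMSO and Hspb8 (0.02) for DMSO over untreated in thinned libraries, Dnaja2 (0.08) without benzamil replicates 3 and 4, and Hspb8 with an untreated library left out (-0.82 to 0.94, the latter without replicate 2). With each library left out in turn, the DMSO over untreated sums also took both signs for small heat shock proteins (-1.11 to 0.54), J-domain C genes (-0.50 to 0.35), Hsp110 (-1.37 to 0.36) and all members (-0.02 to 0.30), as did the benzamil over untreated sums of Hsp90 (-0.34 to 0.22), J-domain C genes (-0.39 to 0.45) and Hsp110 (-1.61 to 0.11), each without 1 untreated library, and the benzamil over DMSO sum of all members (-0.07 to 0.02). Without Hsp90ab1 the Hsp90 sum turned from -0.41 to 0.34 for DMSO over untreated and from -0.09 to 0.10 for benzamil over untreated.

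The counts over all genes, the background of the shares above, also moved by over 1.5 times in some settings. For benzamil over DMSO, 520 genes higher and 634 lower became 269 and 979 with library totals alone, 327 and 532 in DESeq2, 284 and 300 without benzamil replicates 3 and 4, and 131 and 149 of 1626 tested in thinned libraries. For DMSO over untreated, 518 and 445 became 2369 and 541 in limma, 305 and 449 in DESeq2, 227 and 216 in thinned libraries and 238 and 201 without untreated replicate 1. For benzamil over untreated, 128 and 84 became 64 and 102 with library totals alone and 200 and 55 without a filter.

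The labels do not say whether replicate numbers pair the samples. Deviations from the group means correlated across genes at 0.0686, 0.000694, 0.0406 and 0.0676 in same-numbered DMSO and benzamil libraries. In different-numbered ones they correlated at -0.129 to 0.170, and not every library correlated best with its own number. Correlations this weak cannot decide whether samples were paired. With the replicate block, 13 members were called lower and 1 higher for benzamil over DMSO (Hspa14 and Hspb1 lost), 10 higher for DMSO over untreated (Cct6a and Hspa8 gained) and 0 for benzamil over untreated.

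Depth limits what can be seen. In the untreated libraries 1 read was worth 13.4 and 14.1 CPM before scaling, and Hspe1, Hspa1b and Dnajb6 rest on 1, 1 and 0 untreated reads, so their distance from untreated skin has a wide interval or only a lower bound. The 13 members left out by the filter were not tested, and a missing call among the others does not show equal levels.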
